A study of Rattus norvegicus with 38 samples.

Results

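The inferior sinoatrial node of failing rat hearts was compared with the failing right atrium. The comparison rests on 8 of the 38 libraries of the series: 4 of the failing inferior node (iSAN) and 4 of the failing right atrium (RA). They were chosen by region and health state in the labels and paired by the 4-digit code in which each title ends (node iSAN0409, iSAN0506, iSAN0507 and iSAN0508, atrium RA_0409 to RA_0508). A pair is called here by its node library. The question was how much of the difference between node and atrium is present in disease, so that the same contrast in healthy hearts (node libraries SB_0920, SB_0921, SB_1001 and SB_1002, with RA_0920 to RA_1002) was set beside it. All libraries came from male Sprague-Dawley rats aged 10 weeks, in pieces of tissue that hold many cell types. Per the labels' protocols, the ascending aorta was constricted at 1 week of age, with hypertrophy of the left ventricle afterwards. Healthy libraries carry this text as well, and the treatment of the healthy rats was not given in the sources used here. Whether a code stands for an animal is not stated either. If libraries share animals or dissections beyond the codes, the p-values cover the spread among libraries alone, which may be technical. No code occurs in both states, so that a batch tied to the codes and the health state cannot be told apart.

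The sinoatrial node is the pacemaker of the heart, a strip of specialised muscle in the wall of the right atrium in which each beat starts. Its cells depolarise by themselves, through HCN channels that carry the pacemaker current and through cycling of calcium, and they are held in this state by transcription factors such as Isl1, Shox2 and Tbx3. Tbx3 is known to repress genes of working atrial muscle, such as those for atrial natriuretic peptide and for the connexins of fast conduction. The node lies in a bed of fibroblasts, nerve endings and ganglia, and fat. The deposited table lists genes by Ensembl ID alone, and none of these IDs could be matched to a name here. None of these genes, nor any marker of the node, of working muscle or of another cell type, was therefore looked up, and genes are described by their levels and by their behaviour in other libraries. In bulk tissue, fewer cells of a type and less RNA per cell cannot be told apart, and the part that nodal muscle and other tissue of the node piece had in any difference was not tested.

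The 8 libraries of the failing comparison held 17406275 to 25161142 rounded estimated counts each, and the 8 healthy ones 20393923 to 23830383. The 10 most abundant genes took 21.1 to 27.5% of the counts in the failing atrium. They took 26.4% in failing node library iSAN0409 and 13.5, 18.8 and 16.4% in the other 3 node libraries. Along the first principal component, which carried 60.3% of the variance of the 8 failing libraries, the atrium lay between -54.4 and -48 and the node at 35.6 (iSAN0409), 61.4, 46.4 and 59.4. Node library iSAN0409 was thus the one nearest to the atrium, and no node library overlapped with it. In healthy hearts node library SB_0920 stood apart in the gene lists given further down. The part of this in the results was not tested beyond the values given without these pairs.

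Failing node and failing atrium differed in a large share of the genes that could be tested. Of 14204 genes, 2034 (14.3%) were higher in the failing node and 1649 (11.6%) were lower, by edgeR's quasi-likelihood test with the code as a block and a Benjamini-Hochberg adjusted p under 0.05. Differences upwards were the larger ones. The median log2 fold change was 1.20 among the higher genes and -0.58 among the lower genes. At least 2-fold changes were found for 1203 higher genes (8.47% of those tested) and for 254 lower genes (1.79%), and 16-fold ones for 132 and 2 genes. The genes that were higher took 11 to 18.1% of all counts in the node and 5.2 to 6.21% in the atrium. The genes that were lower took 17.5 to 22% in the node and 30.8 to 33.1% in the atrium. Neither range overlapped between the tissues, which is largely set by the choice, since these genes were called on the same libraries. Library iSAN0409 had the lowest node value for the first and the highest for the second. Among all calls, higher genes were most numerous among weakly expressed genes and lower genes among abundant ones. In the lowest tercile of genes by mean level 841 were higher and 195 lower, in the middle tercile 640 and 411, and in the highest tercile 553 and 1043. For lower genes this did not hold among changes of at least 2-fold, with 111, 58 and 85 lower genes in the same order. Higher genes of that size numbered 713, 274 and 216.

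The numbers of genes depended on the pairs in the fit and on the scaling. Without pair iSAN0507 there were 985 higher and 312 lower genes, without pair iSAN0506 there were 1049 and 425, and without pair iSAN0508 there were 1485 and 865, whereas without pair iSAN0409 there were 2365 and 2253. Without the code as a block, edgeR called 1649 genes higher and 1047 lower. With limma on log2(TPM + 1) as deposited, 3034 genes were higher and 296 lower, so that 91.1% of the calls were upwards against 55.2% in edgeR. That scale moved the median of all genes to 0.28, and after TMM scaling of the same TPM values the split was 1869 against 1424, or 56.8% upwards.

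In healthy hearts the same contrast gave 1759 genes higher in the node (12.4% of 14129) and 1294 lower (9.16%). The median log2 fold change of these genes was 0.85 and -0.42. At least 2-fold changes numbered 756 upwards and 89 downwards. The healthy counts fell to 891 and 402 without pair SB_1001 and to 1067 and 599 without pair SB_1002. The biological coefficient of variation, the spread left after the code block, was 0.127 in the healthy and 0.176 in the failing libraries. Differences that both tissues of a code shared are not in it. On a gene list given further down, node minus atrium spread more widely among healthy pairs (1.12 to 2.72) than among failing ones (2.52 to 2.67). The numbers of calls in the 2 states are no test of the difference between them, which is given further down.

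Of the genes that marked the healthy node, 66.6% of the higher and 59% of the lower ones also marked the failing node. The 2 comparisons share no library. Among 13823 genes tested in both, 1724 were higher in the healthy node and 1922 in the failing node, and 1148 were higher in both. These were 66.6% of the healthy list and 59.7% of the failing list, whereas 13.9% of all genes tested in both were higher in the failing node. Of the genes lower in the healthy node, 757 of 1282 (59%) were also lower in the failing node, against 11.8% of all genes, and they were 46.3% of the failing list of 1635. Opposite calls were made for 4 genes: 3 higher in the healthy node were lower in the failing node, and 1 went the other way. Irrespective of the test, 93.7% of the genes higher in the healthy node had a positive fold change in failing hearts, where 48.3% of all genes did, and 94.9% of the lower genes had a negative one, where 51.7% of all genes did. The median fold change of the healthy list was 0.83 in healthy and 0.90 in failing hearts for higher genes, and -0.41 and -0.52 for lower genes (log2). Since these genes were chosen on the healthy libraries, it is the failing values that were free to vary. The shared percentages moved with the pairs in the fit: without pair iSAN0506 or iSAN0507 they fell to 42.5 and 38.1% for higher genes and to 24.4 and 18.2% for lower genes, and without pair iSAN0508 the latter was 42.8%. With limma on log2(TPM + 1), 29.6% of the healthy lower genes were shared, and without the code as a block 44.4%.

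**Figure D1:**
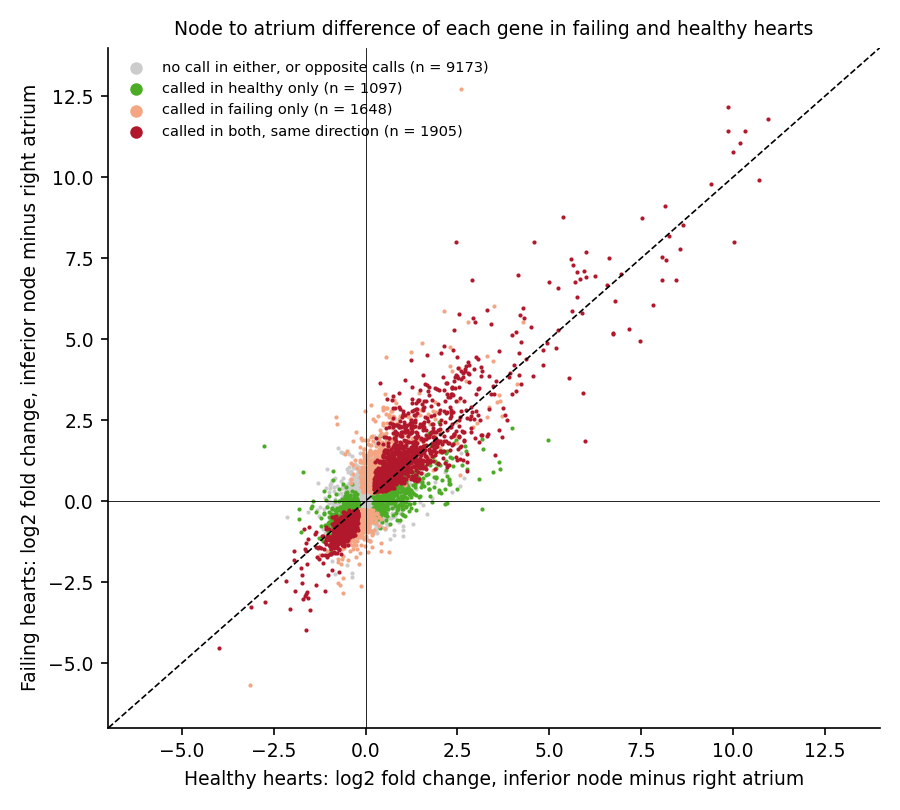
Each point is a gene tested in both states (13823 genes). The horizontal axis gives the log2 fold change of inferior node minus right atrium in healthy hearts and the vertical axis that in failing hearts, with the dashed line marking equal values. Colours give the calls of edgeR's test. The 1905 genes called in the same direction in both states lie in the upper right and lower left quadrants.

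Among higher genes tested in both states, a larger difference in healthy hearts passed more often in failing hearts. Of genes higher in the healthy node by less than 0.5 on the log2 scale, 190 of 413 (46%) passed in the failing node. This was 66.9% of 590 genes between 0.5 and 1, 73.9% of 459 genes between 1 and 2, and 81.1% of 196 genes between 2 and 4. Of the 74 genes that were at least 16-fold higher in the healthy node, 66 were tested in both states. Of these 66 genes, 65 (98.5%) were higher in the failing node too. The median log2 fold change of the 66 was 5.90 in healthy and 6.72 in failing hearts. The others did not pass the filter on low counts in failing hearts. A gene with few counts in the atrium passes it mainly through the node, so the share and the medians are partly set by the filter. With the genes at 0 counts in all 4 atrium libraries (4 in healthy and 3 in failing hearts) set at their bound, the medians were 5.80 and 6.44. Among lower genes the share did not rise throughout, with 52.7% of 825 below 0.5, 71% of 379 between 0.5 and 1, and 66.7% of 72 between 1 and 2, where the median was -1.26 in healthy and -1.19 in failing hearts. Across the 13823 genes, the fold changes of both states had a Pearson r of 0.83 and a Spearman rho of 0.66. This is a description across genes, which are not independent replicates.

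Genes that passed in 1 state alone were seldom shown to differ between the states. There were 1097 genes called in the healthy and not in the failing comparison, 573 higher and 524 lower, of which 0 passed the test of the difference between states by edgeR. Of these 1097 genes, 363 had an unadjusted p under 0.05 in failing hearts with the same sign. There were 1648 genes called in the failing and not in the healthy comparison, of which 2 passed the test of the difference. That test called only 8 of 14785 genes (0.0541%), so these counts say little about the genes called in 1 state. Their values in the superior node and left atrium, whose libraries enter neither contrast, give a separate view. The 759 genes called higher in the failing inferior node alone, and tested in all 4 comparisons, had a median fold change (log2) of 0.92 in failing and 0.31 in healthy hearts. In the superior node against the left atrium, 88.4% of these genes were higher in failing hearts and 82.1% in healthy hearts, where 49.5 and 51.3% of all genes were. The 561 genes called higher in the healthy inferior node alone had medians of 0.26 in failing and 0.58 in healthy hearts. They were higher in the superior node than in the left atrium for 66.1% in failing and 80.4% in healthy hearts. The 868 genes lower in the failing inferior node alone were lower in the superior node for 75.1% in failing and 59.4% in healthy hearts, and the 521 lower in the healthy inferior node alone for 66.4 and 89.4%. In all 4 classes the same direction was thus more frequent in the superior node of the state in which the inferior node passed. These are libraries of the same codes, and the shares have no test.

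A list of genes chosen on the superior node and the left atrium gave the difference per pair. It holds the genes called higher (322) or lower (66) in the superior node (sSAN) than in the left atrium (LA) in failing and in healthy hearts alike. The choice of this list was made after seeing the data. Its libraries do not enter the inferior comparisons, although they carry the same codes. Since a call in failing hearts was asked for, genes that mark the node in healthy hearts alone are not in the list, and its failing share is partly set by this choice. Of the 322 genes, 304 were tested in the inferior node in both states. In failing hearts 277 of these 304 (91.1%) were higher in the inferior node than in the right atrium, 1 was lower, and the median log2 fold change was 2.10. In healthy hearts 204 (67.1%) were higher, 1 was lower, and the median was 1.58. For comparison, 14.3 and 12.4% of all genes tested were higher in the 2 states, and the median over all genes was -0.01 and 0. Of the 66 lower genes, 63 were tested. In failing hearts 43 (68.3%) were lower with a median of -0.73, and in healthy hearts 37 (58.7%) with a median of -0.54. Among all genes tested, 11.6% were lower in failing and 9.16% in healthy hearts. The test of the difference between states called 0 genes of either list, where it called 8 of all 14785 genes (0.0541%). The fold change was larger in failing hearts for 213 of the 304 higher genes and 46 of the 63 lower genes.

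Averaged over the higher list, the node exceeded the atrium of its pair in mean log2 CPM by 2.52 (iSAN0409), 2.65 (iSAN0506), 2.67 (iSAN0507) and 2.59 (iSAN0508) in failing hearts. In healthy hearts the values were 1.12 (SB_0920), 2.72 (SB_0921), 2.20 (SB_1001) and 2.23 (SB_1002). The failing pairs lay close together and within the range of the healthy ones, and the healthy value of SB_0920 lay below the other 7. The atrium was alike in all 8 pairs, at 1.79 to 2.11 in failing and 1.97 to 2.06 in healthy hearts, so that the low value of pair SB_0920 came from the node library (3.17, against 4.17 to 4.73 in the other 3). Failing node library iSAN0409, which was nearest to the atrium on the first principal component, was not low on this list (4.44, against 4.39 to 4.77). On the lower list node minus atrium was -0.95, -0.69, -0.72 and -0.85 in the failing pairs and -0.42 (SB_0920), -0.86, -0.53 and -0.43 in the healthy pairs. The ranges of the 2 states overlapped on both lists. Without pair SB_0920, 248 of the 304 higher genes were called in healthy hearts, and with pair SB_1001 or SB_1002 left out 152 and 159 were. In failing hearts 226 to 268 were called with 1 pair left out. The count of the lower list in failing hearts fell to 24 without pair iSAN0507.

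**Figure D2:**
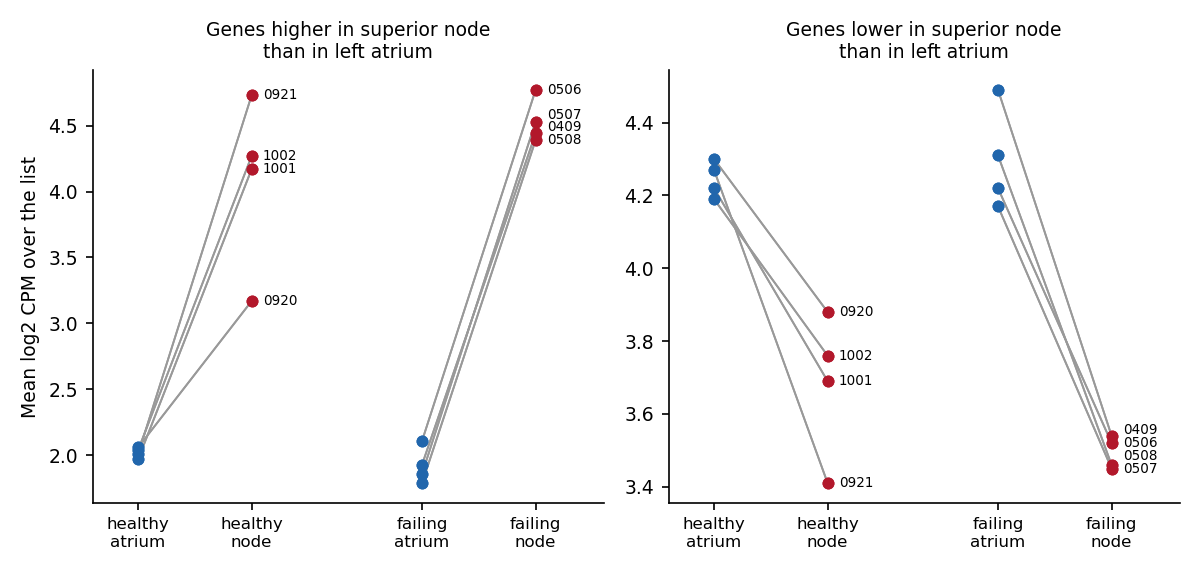
Mean log2 CPM of the genes higher (left, 304 genes) and lower (right, 63 genes) in the superior node than in the left atrium, in each library of the right atrium (blue) and the inferior node (red). Lines join libraries of 1 code, printed beside the node. The failing node libraries lie close together at 4.39 to 4.77 in the left panel, and healthy node library SB_0920 lies lowest at 3.17.

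A list that asked for a call in healthy hearts, whatever the call in failing hearts, was larger and less marked. It includes the genes of the list above. Of 1722 tested genes higher in the healthy superior node than in the healthy left atrium, 867 (50.3%) were higher in the failing and 807 (46.9%) in the healthy inferior node, with medians of 0.56 and 0.52. Among all genes tested in failing and healthy hearts, 14.3 and 12.4% were higher and 11.6 and 9.16% lower in the inferior node. Opposite calls were made for 62 genes in failing and 18 in healthy hearts, and 1340 and 1580 of the 1722 had a positive fold change. Of 1449 lower genes, 551 (38%) and 611 (42.2%) were lower, with medians of -0.32 and -0.26. Opposite calls were made for 40 and 47 genes, and 1176 and 1282 had a negative fold change. This choice used healthy hearts of the same codes as the healthy inferior comparison.

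Most genes that the healthy node expressed and the healthy atrium hardly did were also expressed in the failing node. A group of 93 genes was formed after seeing the data, with each gene below 0.5 CPM in all healthy right atrium libraries, at a mean of at least 1 CPM in the healthy inferior node, and called higher there. In failing hearts 69 of the 93 were called higher in the node (14.3% of all genes tested were), 0 were called lower, and 15 did not pass the filter on low counts. The choice kept the healthy atrium near 0, so a call of lower was hardly possible where the failing atrium stayed near 0 too. Such a gene passes the filter on low counts mainly through the node. The numbers of calls are therefore partly set by the choice and the filter. In the failing node 74 of the 93 had a mean of at least 1 CPM, and 51 had a higher mean than in the healthy node. In the failing atrium 58 of the 93 were again below 0.5 CPM in all 4 libraries. Summed over the 93 genes, the failing node held 1310 CPM (iSAN0409), 1800 (iSAN0506), 1680 (iSAN0507) and 1130 (iSAN0508). The healthy node held 183 CPM (SB_0920), 3000 (SB_0921), 874 (SB_1001) and 982 (SB_1002). The 4 failing values lay inside the healthy range, and library SB_0920 had the lowest sum of the 8 node libraries. Much of these sums came from few genes. Without the 10 most abundant of the 93, the failing node held 366, 510, 389 and 381 CPM and the healthy node 109 (SB_0920), 462, 255 and 315 CPM, so that iSAN0506 lay above the healthy range. The failing right atrium held 27.6 to 72.1 CPM and the healthy right atrium 12.2 to 14.9 CPM, and these ranges did not overlap. The healthy atrium libraries were chosen to be low, so this gap is partly set by the choice. The left atrium held 124 to 207 CPM in failing and 56.2 to 85 CPM in healthy hearts, the left ventricle 144 to 208 CPM over both states, and the superior node 890 to 5410 CPM. Without the 10 genes, SB_0920 at 109 CPM lay below 2 failing left ventricle libraries (145 and 136 CPM). With 1 failing pair left out, 61 to 69 of the 93 genes were called higher.

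**Figure D3:**
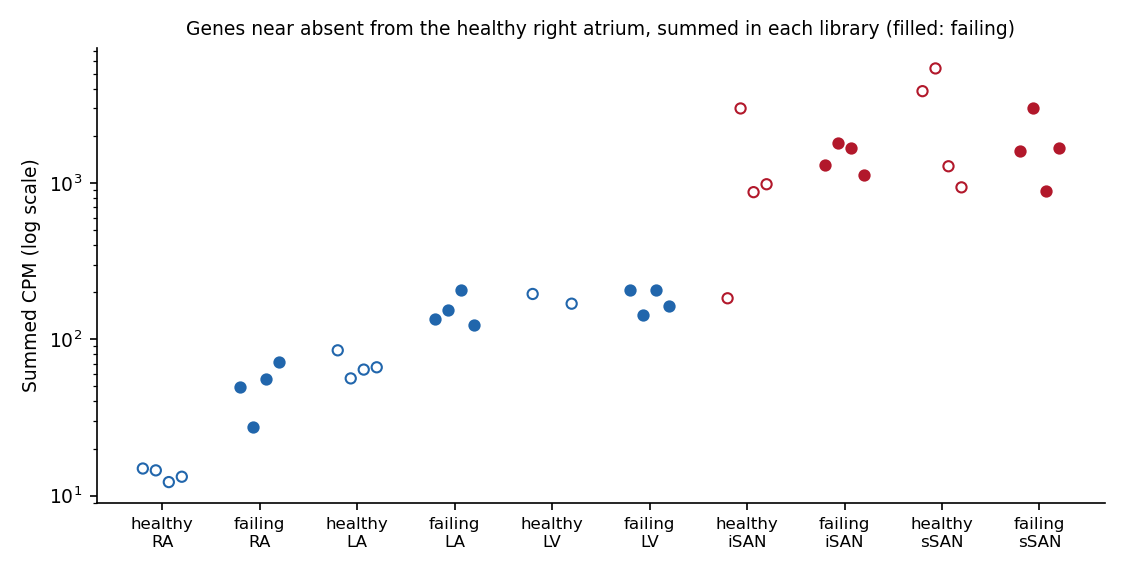
Summed CPM (log scale) of 93 genes that were below 0.5 CPM in all healthy right atrium libraries and higher in the healthy inferior node, in each library of the 5 regions. Red points are node libraries and blue points other regions, filled for failing and open for healthy hearts. All node libraries but SB_0920 (183 CPM) lie at 874 CPM or above, and no library of another region lies above 208 CPM.

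The strongest single differences are shown by 4 genes, the 2 with the largest fold changes in each direction among 2349 genes that passed the test, had a mean log2 CPM of at least 1, had the same sign in all 4 pairs and did not overlap between the tissues (1303 higher, 1046 lower). ENSRNOG00000002911 stood at 50.5, 30.1, 27.5 and 30.2 CPM in the failing node (in the order iSAN0409, iSAN0506, iSAN0507, iSAN0508) and at 0 counts in all 4 failing atrium libraries. Taking 3 counts per library as the floor, which is 0.109 to 0.168 CPM, it was at least 257-fold higher in the node. The fitted log2 fold change of 12.74 (SE 0.29, edgeR adjusted p = 0.00055) depends on the prior count and is no bound. In healthy hearts it stood at 2.99, 66.7, 11.1 and 7.85 CPM in the node (SB_0920, SB_0921, SB_1001, SB_1002) and was present in the atrium, at 3.57, 1.90, 1.90 and 1.29 CPM. The groups overlapped there, through node library SB_0920, and the log2 fold change was 2.61 (SE 1.06, edgeR adjusted p = 0.19). Without pair SB_0920 it was 3.62 (edgeR adjusted p = 0.027). The difference between the states did not pass in edgeR (adjusted p = 0.20) and passed in DESeq2 (adjusted p = 5.4e-06), its size being no measurement with 0 counts in the failing atrium. The right atrium did not overlap between the states. In the left atrium it averaged 0.0351 CPM in failing hearts (0 to 0.14) and 1.47 CPM in healthy hearts (1.23 to 1.74), which did not overlap either.

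ENSRNOG00000015086 was near 0 in the right atrium and high in the inferior node of both states. It stood at 142, 226, 214 and 92.9 CPM in the failing node and at 0.0728 CPM or less in the failing atrium. The 4 failing atrium libraries held 3 counts in all. The ratio of summed counts, scaled for library size, was 5200, with an exact 95% interval from 1780 to 25200 that covers counting error only. The fitted log2 fold change was 12.16 (SE 0.28, edgeR adjusted p = 7.4e-06), which depends on the prior count. In healthy hearts it stood at 7.77 (SB_0920), 305, 101 and 101 CPM in the node and at 0.252 CPM or less in the atrium, with a log2 fold change of 9.86 (SE 0.66, edgeR adjusted p = 0.0019). The failing values lay inside the healthy range, and the lowest node value was again that of library SB_0920. In healthy hearts the ratio was 951 (544 to 1840), from 12 counts in the atrium. The fitted difference between states did not pass (edgeR adjusted p = 0.52).

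ENSRNOG00000062678 was lower in the failing node, at 20.8, 30.9, 27.6 and 17 CPM against 719, 601, 580 and 372 CPM in the failing atrium. The log2 fold change was -4.54 (SE 0.18, edgeR adjusted p = 4.9e-05). The healthy node was at a similar level, 18.6 ± 1.85 CPM (SD, n = 4), and the healthy atrium at 299 ± 44.7 CPM, below all 4 failing atrium libraries. The healthy fold change was -3.99 (SE 0.09, edgeR adjusted p = 1.4e-07), and the difference of -0.52 did not pass (edgeR adjusted p = 0.23). The left atrium held 225 ± 164 CPM in failing and 85.1 ± 44.0 CPM in healthy hearts.

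ENSRNOG00000009316 was high in the right atrium and almost missing from the left. It stood at 83.8, 51.3, 55.9 and 1.81 CPM in the failing node against 2360, 1800, 1700 and 1000 CPM in the failing right atrium, a log2 fold change of -5.68 (SE 0.79, edgeR adjusted p = 0.0050). Pair iSAN0508 gave the lowest value of both tissues, and without it the fold change was -4.94 (edgeR adjusted p = 1e-04). In healthy hearts the node held 811, 82.3, 173 and 454 CPM and the atrium 3090, 2370, 2460 and 1880 CPM. The fold change was -3.13 (SE 0.72, edgeR adjusted p = 0.060) with the block and passed without it (-2.68, edgeR adjusted p = 0.041). Node library SB_0920 was here the one nearest to the atrium. The left atrium held 0.134 ± 0.0715 CPM in failing and 0.302 ± 0.197 CPM in healthy hearts (SD, n = 4 each). Against the left atrium the superior node was therefore higher in this gene, by 10.31 in failing and 9.94 in healthy hearts (log2, edgeR adjusted p = 0.0021 and 0.0026). The difference of the inferior contrast between states was -2.50 (edgeR adjusted p = 0.29).

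The failing superior node was set against the same right atrium libraries, which the comparisons thus share. ENSRNOG00000002911 was at least 355-fold higher in the superior node, beside at least 257-fold in the inferior node. The ratio of ENSRNOG00000015086 was 7820 (exact 95% interval 2680 to 37900), beside 5200 (1780 to 25200). The log2 fold changes were -4.30 for ENSRNOG00000062678 and -3.69 for ENSRNOG00000009316, beside -4.54 and -5.68 in the inferior node. Among superior node libraries, ENSRNOG00000062678 spread from 12.8 to 183 CPM and ENSRNOG00000009316 from 22 to 415 CPM.

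**Figure D4:**
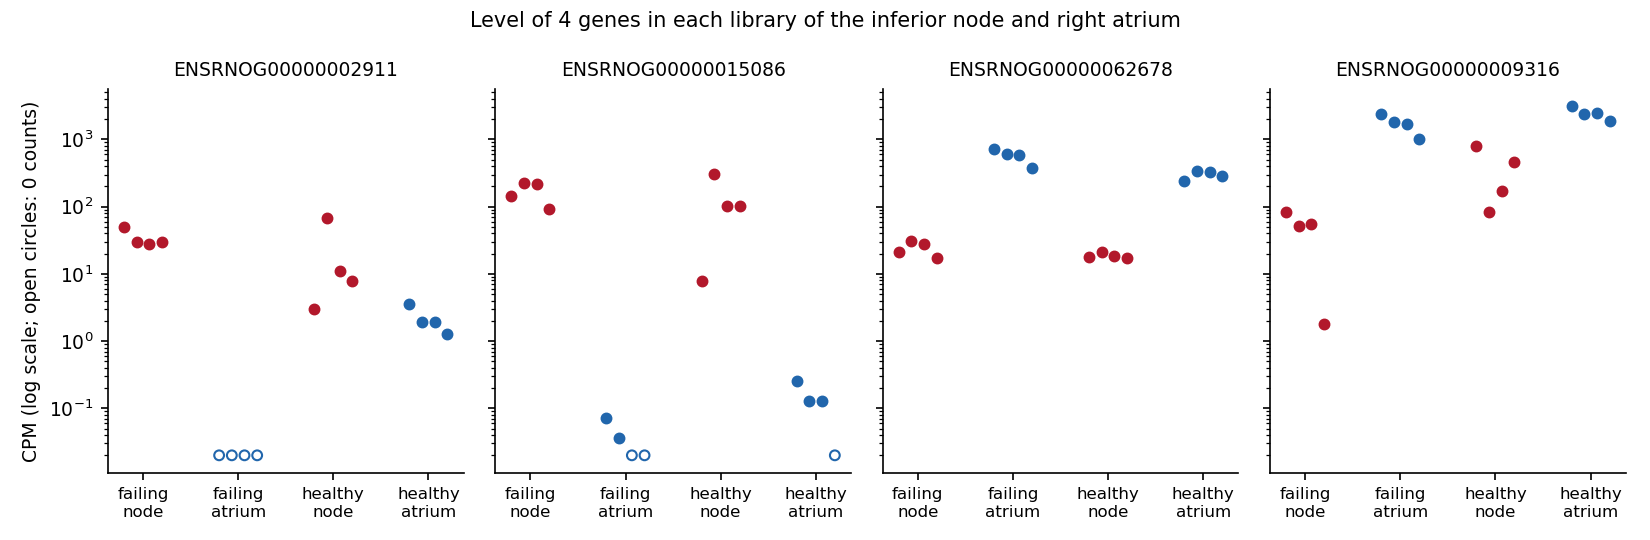
CPM (log scale) of 4 genes in each library of the failing and healthy inferior node (red) and right atrium (blue). Open circles stand for 0 counts and are drawn at the foot of the axis, and points of a group run in the order of the codes. The first gene is at 0 counts in all failing atrium libraries and above 1 CPM in all healthy ones.

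The difference between the states themselves was called for few genes. In 1 fit of the 16 libraries, 8 of 14785 genes (0.0541%) had a node to atrium difference that was unequal in failing and healthy hearts by edgeR. A further view is that 2295 genes (15.5%) had an unadjusted p under 0.05. The 8 genes are numbered by p, from 1 to 8, and 4 had a larger and 4 a smaller value of node minus atrium in failing hearts. The number depended on the tool and on the libraries: DESeq2 called 354 genes (205 larger, 149 smaller), 1129 were called without pair iSAN0409 (413 and 716), 51 without pair iSAN0507 (41 and 10), 17 without pair iSAN0508 (11 and 6), 3 without pair SB_0921 or SB_1002, 5 without pair SB_0920 and 0 without pair SB_1001. Without the block 3 were called, and limma on TMM-scaled TPM called 0, with 2446 at an unadjusted p under 0.05. Leaving out pair SB_1001 left 1922 genes at an unadjusted p under 0.05.

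In genes 1 and 7 the node to atrium difference (log2) was smaller in failing hearts. The atrium was the tissue with the larger change as a ratio, though not in CPM. Gene 1 stood at 45.4, 37.1, 40.4 and 68.4 CPM in the failing node and at 4.11, 4.46, 4.97 and 5.13 CPM in the failing atrium. In healthy hearts it stood at 23.8, 32.4, 31.7 and 19.9 CPM in the node and at 0.505, 0.338, 0.591 and 0.334 CPM in the atrium. It was thus higher in failing than in healthy hearts in both tissues, without overlap. Its log2 fold change was 3.34 (SE 0.15) in failing and 5.92 (SE 0.16) in healthy hearts, a difference of -2.55 (edgeR adjusted p = 0.014). Gene 7 stood at 85.1, 35, 124 and 87.9 CPM in the failing node against 25, 5.38, 33.6 and 42.3 CPM in the failing atrium, and at 6.74 to 10.1 CPM against 0.0834 to 0.169 CPM in healthy hearts. The fold changes were 1.84 and 5.98, the difference -4.11 (edgeR adjusted p = 0.025). On the log2(TPM + 1) scale, which compresses low levels, the difference of gene 1 was 0.36 and that of gene 7 was -0.03.

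Genes 3, 4 and 6 had a larger difference in failing hearts, with a lower level in the failing atrium. Gene 3 stood at 14.8, 19.2, 11.4 and 17.8 CPM in the failing node and at 3.02, 3.92, 3.8 and 5.95 CPM in the failing atrium. In healthy hearts the node (9.2 to 14.1 CPM) and the atrium (12.6 to 14.7 CPM) overlapped. The fold change was 1.96 in failing and -0.13 in healthy hearts, a difference of 2.12 (edgeR adjusted p = 0.014). For gene 4 the failing atrium held 0.279 to 0.732 CPM and the healthy atrium 4.27 to 11.1 CPM, while the node overlapped between the states (6.91 to 21.3 and 8.47 to 28.6 CPM). Its fold changes were 4.35 and 1.25, a difference of 3.14 (edgeR adjusted p = 0.025). For gene 6 the failing atrium held 13.1 to 18.1 CPM and the healthy atrium 41.4 to 53.7 CPM, and the node 27.9 to 54.8 and 42.1 to 62.7 CPM. Its fold changes were 1.20 and 0.12, a difference of 1.11 (edgeR adjusted p = 0.025).

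Gene 8 was the one in which the node moved more than the atrium as a ratio between states. It stood at 84.6, 87.4, 73 and 131 CPM in the failing node and at 13.9 to 16.1 CPM in the healthy node, and at 15.9 to 23.7 CPM in the failing and 8.48 to 9.8 CPM in the healthy atrium. The fold change was 2.38 in failing and 0.71 in healthy hearts, a difference of 1.70 (edgeR adjusted p = 0.031). In genes 2 and 5 the direction differed, with a call in each state. Gene 2 was lower in the failing node than in the failing atrium in all 4 pairs (138 against 192, 106 against 141, 168 against 213 and 198 against 242 CPM), although the ranges overlapped. It was higher in the healthy node, at 132 to 251 CPM against 85.2 to 129 CPM. The fold changes were -0.36 and 0.93, a difference of -1.27 (edgeR adjusted p = 0.014). Gene 5 was lower in the failing node in all 4 pairs (57 against 68.1, 4.86 against 10.9, 10.8 against 13.5 and 9.28 against 20.9 CPM), with iSAN0409 and RA_0409 both high. It was higher in the healthy node, at 20.2 to 24.6 CPM against 7.87 to 10.3 CPM. The fold changes were -0.69 and 1.30, a difference of -1.96 (edgeR adjusted p = 0.025). Genes 2 and 5 are among the 4 genes with opposite calls. The other two had fold changes of 0.58 in failing and -0.36 in healthy hearts, and of -0.54 and 0.28, and the difference did not pass (edgeR adjusted p = 0.082 and 0.089).

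**Figure D5:**
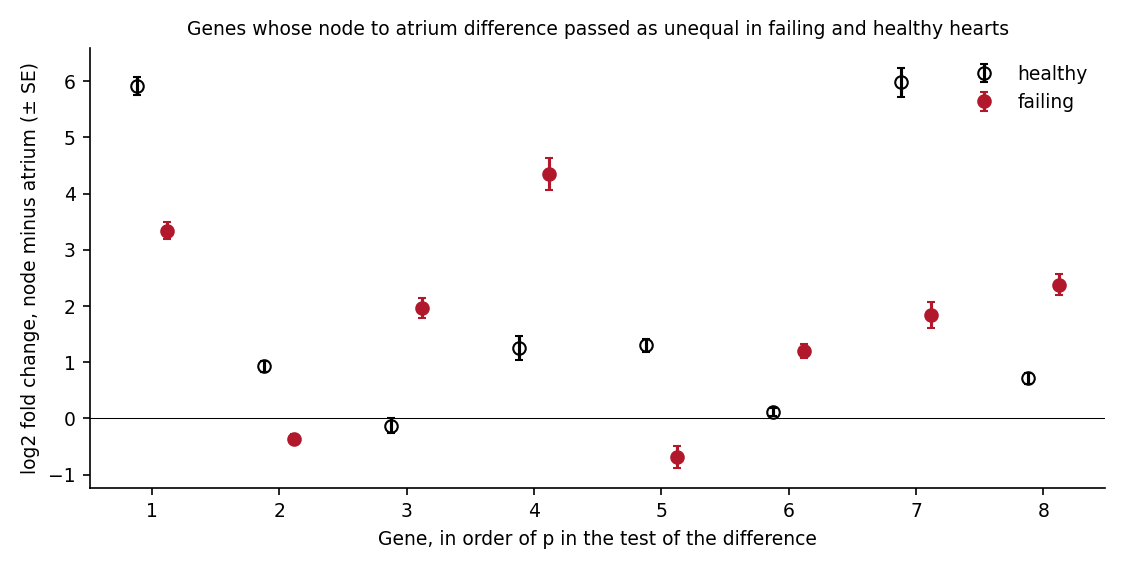
Log2 fold change of inferior node minus right atrium (points, with SE) in healthy (open) and failing hearts (filled) for the 8 genes whose difference between the states passed in edgeR. Genes 1 and 7 have the largest healthy values (5.92 and 5.98) and lower failing ones (3.34 and 1.84). Genes 2, 3 and 5 change sign, gene 3 from a healthy value of -0.13 to 1.96.

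The genes with an unequal difference were sorted by direction. In edgeR's 8 genes, 3 had a larger fold change of the same sign in failing hearts, 2 a smaller one, and 3 a different sign. Of the 347 genes of DESeq2 that were tested in both states, 200 had a larger one, 21 a smaller one and 126 a different sign. Without pair iSAN0409, these were 713, 20 and 383 of 1116 genes. Among those that were higher in the healthy node by edgeR, the fold change in failing hearts was smaller or of opposite sign for 4 of 6 genes in edgeR, 55 of 145 in DESeq2 and 71 of 213 without pair iSAN0409. This classification was chosen after seeing the data and has no test.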

How the data were processed

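Libraries of rat heart tissue were made with a kit for RNA (TruSeq), per the labels' protocols. Per the submitters' processing notes, Trimmomatic 0.39 and kallisto 0.48.0 were used. Genome build, annotation and the step from transcripts to genes were not given in the sources used here. Per the table itself, the authors deposited estimated counts for 24057 genes in 38 libraries, with totals of 17406473 to 27355777, and TPM values. Over 13474 genes above 0 in all libraries, the log ratio of count to TPM split into 1 value per gene and 1 per library. Whether a length correction had entered the deposited estimated counts cannot be told from this, since TPM made with 1 length per gene splits likewise. The depth sets the precision of low values, and the floor of 3 counts covers counting error only.

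Counts were rounded, filtered (filterByExpr, minimum 10, total 15), scaled by TMM and tested with edgeR 4.0.16 in R 4.3.3 (robust quasi-likelihood, Benjamini-Hochberg threshold 0.05), with the code as a block. CPM values use the TMM-scaled library sizes, and principal components log2 CPM with a prior count of 2. Standard errors were derived from the test statistic. Deviations from the group means correlated at 0.30 to 0.38 between failing node and atrium libraries of the same code and at 0.17 to 0.30 between healthy ones, against -0.32 to 0.11 and -0.13 to 0 for different codes, so that the codes pair the libraries by the data. Alternatives were no block, DESeq2 1.42.0, median-ratio factors, no filter, limma 3.58.1 on log2(TPM + 1) and log2(TPM + 0.1), TMM-scaled TPM, 1 fit with the superior node and both states, and each pair left out. The steps were tested on simulated data. The named genes were the 2 largest fold changes in each direction among genes past the threshold with a mean log2 CPM of at least 1, the same sign in all codes and no overlap. Genes with an unequal difference between states were also described, without IDs. The marker and pathway lists were not applied, as the reference table (assembly GRCr8) matched none of the IDs. The members and lists were chosen with earlier results of these data known.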

Additional observations from a re-analysis of the deposited data

Results flagged for a closer look

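In 69 groups of 4 libraries, the highest or lowest value was set against the others, and 4 groups had a value whose gap to the next exceeded the critical share of the range in Dixon's test. Chance gives this in about 1 in 20 groups. ENSRNOG00000002911 was at 50.5 CPM in failing node library iSAN0409, with the next library at 30.2, and at 66.7 CPM in healthy node library SB_0921, with the next at 11.1. Gene 5 of the difference between states was at 57 CPM in failing node library iSAN0409, with the next at 10.8. Gene 8 was at 23.7 CPM in failing atrium library RA_0409, with the next at 16.4.

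The node to atrium difference was unequal in failing and healthy hearts, by edgeR's test of the difference itself, for 8 genes. In the order of their p, the log2 difference of failing minus healthy was -2.55, -1.27, 2.12, 3.14, -1.96, 1.11, -4.11 and 1.70. Pair iSAN0409 holds 3 of the 4 single values above and is also the pair whose removal raised the number of such genes to 1129. Its part in that number was not tested further.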

How the results depend on the processing

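The medians of the superior node lists and the fold changes of the 4 named genes kept their direction under the alternatives run. The balance of the counts did not: the fit with the superior node and both states (the wider fit) gave 2738 higher and 2975 lower genes (47.9% upwards). Among the 8 genes with an unequal difference, gene 1 changed sign on log2(TPM + 1), to 0.36, and to 0.18 on the TMM-scaled values. In the failing comparison, leaving out a pair gave 985 to 2365 higher and 312 to 2253 lower genes. Fits without the replicate block gave 1047 lower genes, and 1065 to 1928 higher and 433 to 1591 lower with a library left out. limma gave 3292 higher and 314 lower genes on log2(TPM + 0.1) and 296 lower on log2(TPM + 1). In healthy hearts, leaving out a pair gave 891 to 1800 higher and 402 to 1222 lower genes (499 to 1282 lower without the block), and limma gave 638 and 698 lower. Genes with a larger value of node minus atrium in failing hearts numbered 2 without the block (2 to 88 with a library left out), 205 in DESeq2, 10 and 22 in limma on the TPM scales, 0 on TMM-scaled TPM and 15 in the wider fit. Genes with a smaller value numbered 1 without the block (0 to 70), 149 in DESeq2, 1 on log2(TPM + 1), 0 on TMM-scaled TPM and 20 in the wider fit. These values are signed, so a smaller value is a wider difference in a gene that is lower in the node in both states. With a pair left out they were 0 to 413 and 0 to 716. The percentage of healthy higher genes shared with failing hearts was 38.1 to 75.7 with a pair left out, and that of lower genes 18.2 to 75.2, or 29.6 and 29.1 in limma. The median of the superior node's higher list in failing hearts was 2.05 to 2.23 with a pair left out and 1.76, 2.34 and 1.46 in limma (TPM + 1, TPM + 0.1, TMM-scaled), and that of the lower list was -0.33 and -0.36 on the unscaled TPM, a scale that moved the median of all genes to 0.28 and 0.35. The cause of these changes was not tested, beyond the smaller number of libraries in a fit with a pair left out. The 4 named genes kept their calls in failing hearts in all 12 alternatives. In healthy hearts, ENSRNOG00000015086 lost its call on log2(TPM + 1) (5.60), ENSRNOG00000002911 gained one in 3 and ENSRNOG00000009316 in 5. With 4 pairs per state, the difference between states has few libraries behind it, so that a gene not called there is not shown to be equal.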
